A study of Mus musculus with 9 samples.

Results

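The transcripts of 10 genes of glycolysis were followed in meningeal lymphatic endothelial cells (MLECs), the cells that line the lymphatic vessels of the meninges, in mice with and without an intracranial tumor. The genes were Hk1, Hk2, Gpi1, Pfkl, Pfkp, Pfkfb3, Aldoa, Tpi1, Pgk1 and Ldha, taken by symbol from a table of 24321 genes, and each of the 10 had a row. The design had 3 groups of male C57BL/6 mice, labelled as 10 weeks old, with 3 RNA-seq libraries each. Control mice received PBS, GL261 mice received GL261 cells (a mouse glioma line) and B16 mice received B16 cells (a mouse melanoma line), so that all mice had an injection of 5 µL according to the labels. The labels give 100000 tumor cells through the cisterna magna and collection after about 3 weeks (GL261) or 2 weeks (B16). The study's methods instead describe an injection under the dura for MLEC collection, and their subdural model used fewer cells in a smaller volume. They place collection at 2 to 3 weeks without naming groups, and the study's results place it at 2 weeks for all 3 groups. Each library came from 10 sorted cells of meninges pooled from 6 mice, so that a replicate is a pool of animals. The methods name CD31, CD45 and LYVE-1 as the sorting stains, and the study's results name PDPN in the place of LYVE-1. The GL261 and B16 groups, joined, are called tumor-associated MLECs (6 libraries).

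Glycolysis splits glucose into pyruvate in the cytosol, and endothelial cells are known for drawing much of their ATP from it, also where oxygen is present. Hexokinases trap glucose as glucose 6-phosphate, phosphofructokinase sets the committed step, and the lower enzymes yield ATP and pyruvate. Lactate dehydrogenase A then turns pyruvate into lactate, which regenerates the NAD+ that the pathway needs. In sprouting endothelium the activator PFKFB3 is known to raise the flux.

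Ldha was the only 1 of the 10 genes that passed the test in tumor-associated MLECs, and its mean level was 4.89 times that of control MLECs. Pfkl, the liver-type phosphofructokinase, was also higher in each tumor-associated library than in each control library, but its adjusted p was over the threshold. The enzymes in the middle of the pathway, Gpi1, Aldoa, Tpi1 and Pgk1, had overlapping values, Hk2 was hardly listed in any library, and Pfkfb3 was listed at 0 in each control library.

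The values are FPKM (fragments per kilobase of transcript and 1000000 fragments), a measure per length. Levels of different genes can be set side by side only roughly, since biases that differ between genes were not measured. A difference is the difference of group means of log2(FPKM + 1), a scale on which changes of low genes come out too small. It was tested with limma, and p was adjusted after Benjamini-Hochberg over the 9955 genes that reached an FPKM of 1 in 3 or more libraries. A gene is called when its adjusted p is under 0.05. Of the 10 genes, 9 passed this filter. Hk2 did not, and Pfkfb3 passed only through 3 tumor-associated libraries, so that its groups had to differ. Control libraries had 7303 to 8688 genes above 0, GL261 libraries 9456 to 10852 and B16 libraries 8736 to 9950. Summed FPKM ranged from 652636 to 693117 in control and from 701951 to 888312 in tumor-associated libraries. Read counts per gene were not used here, and the counting error of an FPKM is therefore unknown. The study lists fewer aligned reads for each control library than for each tumor-associated library, so that depth moved with the groups. Tbp, which all cells transcribe, was listed at 0 in 2 of the 3 control libraries, and a value of 0 is therefore given as listed at 0 and not as absence. Fewer cells of a type and less RNA per cell cannot be told apart in such pooled libraries.

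The labelled cell type was checked against its markers. Pecam1, Lyve1, Flt4, Pdpn and Prox1 were above 0 in all 9 libraries, but 10 lymphatic markers together reached 10675 to 17002 FPKM in a control library against 1342 to 3320 with GL261 and 2616 to 7144 with B16. Ccl21c alone gave 7384 to 13803 FPKM of the control sums, and without it the other 9 markers reached 2810 to 3292 FPKM in a control library against 1200 to 2674 with GL261 and 1413 to 2957 with B16, where control and B16 overlapped. The panendothelial genes on the list, Pecam1 and Cdh5, had differences of 0.67 and 0.45, and Lyve1 overlapped at -0.36 (limma's adjusted p of 0.222, 0.524 and 0.629). Flt4, Reln and Mmrn1 were lower in each tumor-associated than in each control library (-1.80, -2.35 and -2.56, limma's adjusted p of 0.0160, 0.0335 and 0.00543). So was Prox1 (-2.79, limma's adjusted p = 0.0509), while Pdpn overlapped (-1.48, 0.235). For 8 markers of blood endothelium the sum was 843 to 1579 FPKM in a control library, 5753 to 8859 with GL261 and 4385 to 7332 with B16. In tumor-associated against control MLECs, 7 of these 8 blood endothelial genes rose and 4 of the 9 lymphatic genes tested fell, with 0 calls in the opposite direction (limma, adjusted p under 0.05). Of the genes that rose, Ly6c1 and Flt1 passed the filter only through tumor-associated libraries, so that their direction was fixed. These lists moved with each difference from control given below, and their part in it was not tested. Markers of tumor cells and red cells were at or near 0. The 6 genes of glia and glioma summed to at most 9.32 FPKM in a library, the 6 of melanocytes and melanoma to at most 4.07 and the 6 of red cells to at most 9.12, and Gfap, Sox2, Mlana, Tyr, Tyrp1, Alas2 and Ptprc were listed at 0 in all 9 libraries. The 8 leukocyte markers, led by Lyz2 and Cd68, summed to 43.2 to 183 FPKM without a tumor, 12.9 to 349 with GL261 and 14.2 to 37.4 with B16, so that GL261 overlapped with control and B16 lay below it. The 6 fibroblast markers summed to 16.2 to 49.0 in control and at most 3.85 in tumor-associated libraries, in control mostly from Dcn. Dcn, the only 1 of the list tested, fell, but it passed the filter only through the control libraries, so that its direction was fixed. The 5 mural markers summed to 169 to 1210 FPKM in control and 13.2 to 121 in tumor-associated libraries, with Acta2 and Tagln high only in control replicate 1. In control replicates 2 and 3 the sum came from Kcnj8 alone (195 and 169 FPKM). Kcnj8 overlapped between the groups, at 59.9 to 195 FPKM without and 6.56 to 116 FPKM with a tumor.

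**Figure D1:**
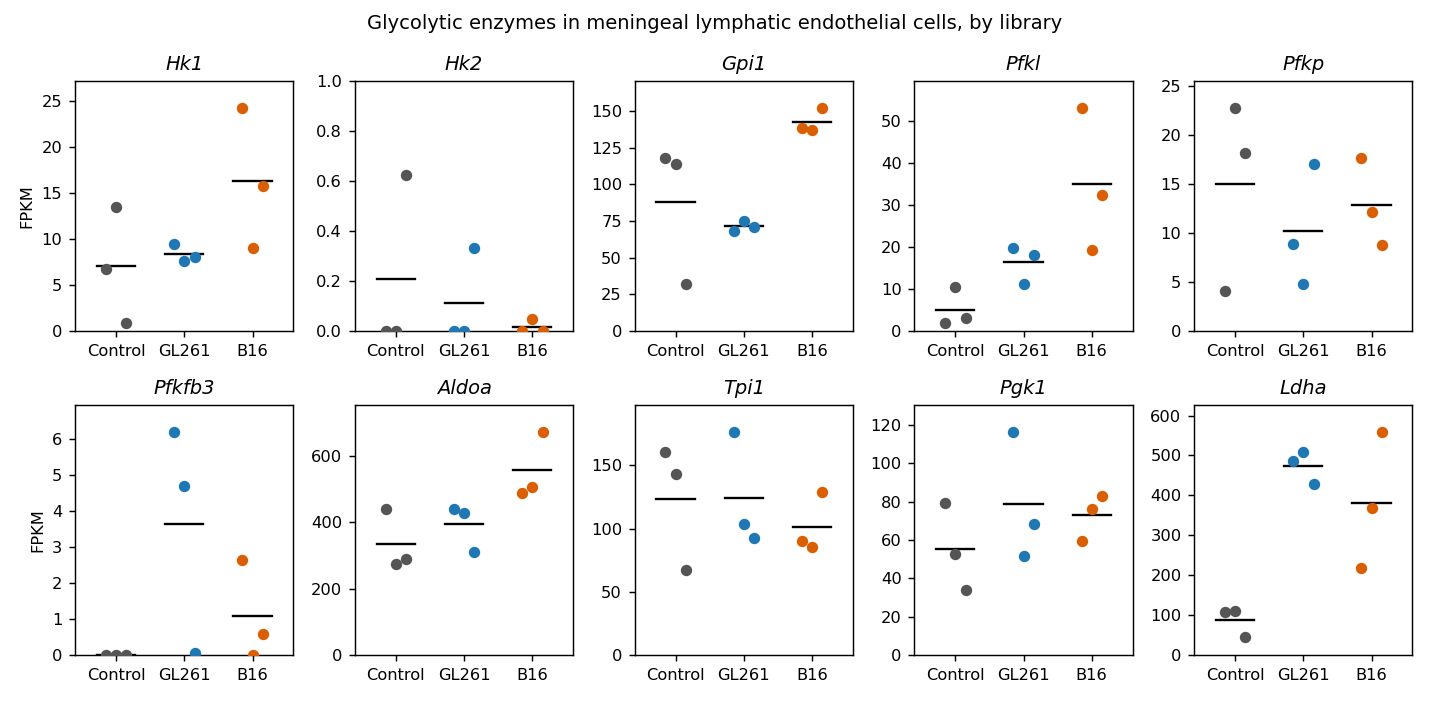
FPKM of each of the 10 genes (vertical axes, linear from 0, a scale of its own in each panel) in the 3 control, 3 GL261 and 3 B16 libraries. Points are libraries and bars are group means. In Ldha all 6 tumor-associated libraries, at 217 to 560 FPKM, lie above the control libraries at 44.1 to 111.

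Ldha encodes the A subunit of lactate dehydrogenase and lies on the plus strand of chromosome 7, from 54096845 to 54110997 in mm9 (GENCODE M1). The control libraries had 107, 111 and 44.1 FPKM of Ldha, the GL261 libraries 485, 508 and 428, and the B16 libraries 217, 368 and 560. The lowest tumor-associated library, B16 replicate 1, was above the highest control library, control replicate 2. Mean Ldha was 87.4 ± 37.6 FPKM (SD, n = 3) without and 428 ± 123 FPKM (SD, n = 6) with a tumor, a ratio of 4.89. On the log2 scale the difference was 2.33 (standard error 0.38, limma's adjusted p = 0.00382 with Benjamini-Hochberg adjustment over all genes tested). The median of all genes tested was shifted by 0.20 in this comparison, and Ldha lay 2.13 above it. The shift was 0.05 after rescaling each library to the same sum and -0.04 after quantile normalization, and Ldha then differed by 2.11 and 2.18. By adjusted p, 88 of the 9955 genes were at or ahead of Ldha.

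Among the 9 genes tested, the 1 call has to be read against a background of 3.93% of all genes called in this comparison, 2.9% higher and the rest lower. Of the calls over all genes 73.9% were higher in tumor-associated MLECs, against 64.4% after rescaling and 59.4% after quantile normalization. Without Pfkfb3, whose direction the filter fixed, 6 of 8 genes had a positive difference, with a median of 0.49, beside 57.2% of all genes and a median of 0.20. The groups did not overlap for 2 of these 8 genes, Ldha and Pfkl, both higher, and for 10.5% of all genes (6.08% higher). By ROC power above 0.4, the measure by which the study ranked genes and which gives no p, 39.8% of the genes above 0 passed. Among the 10 genes Hk1, Pfkl, Pfkfb3, Aldoa, Pgk1 and Ldha (6 genes) passed it.

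Both tumors were then set against the same 3 control libraries, each in a model with 3 groups. In GL261 MLECs Ldha was higher than in control by 2.54 (standard error 0.43, 95% interval 1.59 to 3.48, limma's adjusted p = 0.00956), and it was the only 1 of the 9 genes called, beside 3.49% of all genes (2.58% higher). In B16 MLECs the difference was 2.12 (standard error 0.43, 95% interval 1.18 to 3.07, limma's adjusted p = 0.0295), again the only call among the 9 genes, beside 2.11% of all genes (1.61% higher). Directly compared, GL261 and B16 MLECs differed in Ldha by 0.41, with a 95% interval from -0.53 to 1.35 (limma's adjusted p = 1). The call in B16 was close to the threshold and was lost without control replicate 3 (adjusted p = 0.0571 from limma), GL261 replicate 1 (0.0534), GL261 replicate 2 (0.0530), B16 replicate 2 (0.0988) or B16 replicate 3 (0.126). The call in GL261 was lost without GL261 replicate 2 (adjusted p = 0.0505 from limma).

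When the log2 of the aligned reads listed by the study entered the model, the difference of Ldha between tumor-associated and control MLECs was 1.20 (limma's adjusted p = 0.404), and with the number of genes above 0 as the covariate it was 1.72 (limma's adjusted p = 0.284). These models left 9 and 13 genes called in the whole table. Ratios between genes within a library do not depend on how the library was scaled. Ldha divided by Aldoa gave 0.242, 0.405 and 0.152 in the control libraries, 1.10, 1.18 and 1.37 with GL261, and 0.443, 0.725 and 0.830 with B16. Ldha divided by Tpi1 gave 0.656 to 0.777 without and 2.40 to 4.89 with a tumor. Ldha divided by Gapdh gave 0.145, 0.121 and 0.0752 in the control libraries, 0.277, 0.302 and 0.256 with GL261, and 0.128, 0.290 and 0.243 with B16. The ratios to Aldoa and Tpi1 did not overlap between control and tumor-associated libraries, and the ratio to Gapdh did, since B16 replicate 1 lay below control replicate 1. These ratios were chosen after the values were seen and were not tested.

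The place of Ldha among the 10 genes also differed, but it comes from the same FPKM values, is no separate result and was not tested. Aldoa had the highest FPKM of the 10 in all 3 control libraries, where Ldha ranked 3 or 4. Ldha had the highest FPKM in all 3 GL261 libraries and came second to Aldoa in all 3 B16 libraries. Over the whole table it ranked between 861 and 1817 in control and between 246 and 489 in tumor-associated libraries. Ldhb, which encodes the other common subunit of the enzyme, had 39.9, 0 and 3.10 FPKM in control libraries and at most 4.67 with a tumor, and did not pass the test (log2 difference -1.32, limma's adjusted p = 0.520). Ldha made up 72.8% of the summed FPKM of both genes in control replicate 1 and at least 93.4% in each other library. In the mm9 genome 2 intronless copies matched the Ldha coding sequence at 95% identity or more over at least 80% of its length, and 2 matched that of Pgk1, so that reads of these genes can be shared with such copies. None of the other 8 genes had such a copy.

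**Figure D2:**
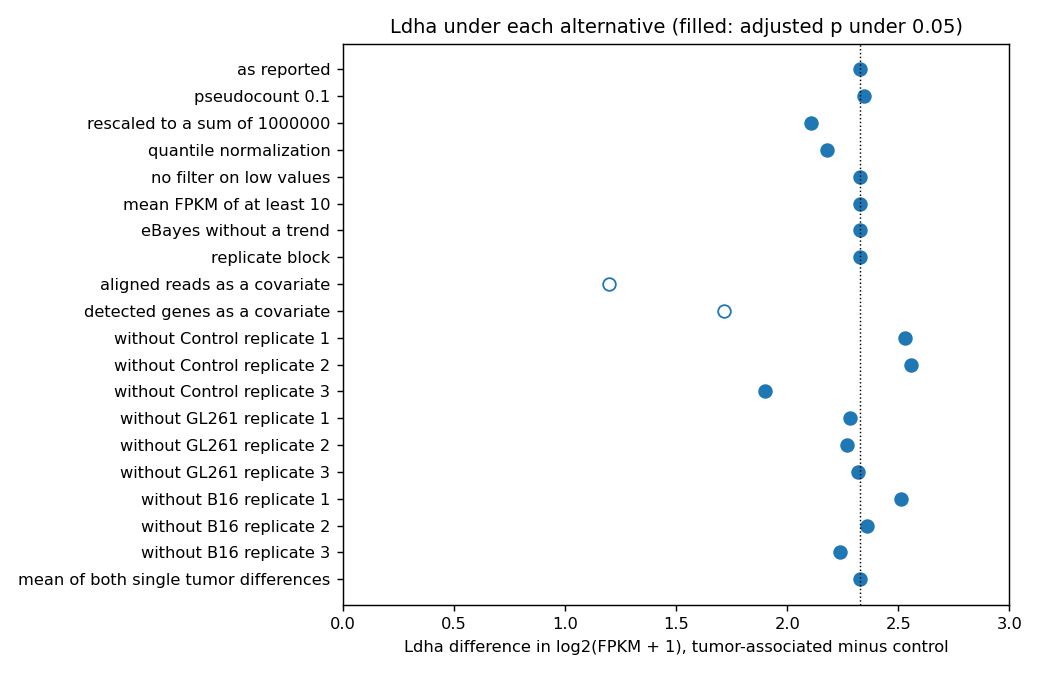
Difference of Ldha between tumor-associated and control MLECs in log2(FPKM + 1) (horizontal axis) as reported and under each of 19 alternatives (vertical axis). Filled points have a limma adjusted p under 0.05. The open points are the fits with a depth covariate, at 1.20 and 1.72, and the other alternatives lie between 1.90 and 2.56.

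The promoter of Ldha is printed because Ldha is the gene that was called, with that of Pgk1, a gene of the same pathway that was not called, and that of Pfkl, which was higher without overlap. Hypoxia-inducible factors are known to bind the core ACGTG, which overlaps CACGTG, the E-box that MYC is known to bind. The 250 bases before the first start that RefSeq lists for each gene were located in mm9 by exact match and are written 5′ to 3′ on the gene's strand, with capitals for ACGTG on either strand (read as CACGT on the other).
Ldha, chr7:54100924-54101173, plus strand: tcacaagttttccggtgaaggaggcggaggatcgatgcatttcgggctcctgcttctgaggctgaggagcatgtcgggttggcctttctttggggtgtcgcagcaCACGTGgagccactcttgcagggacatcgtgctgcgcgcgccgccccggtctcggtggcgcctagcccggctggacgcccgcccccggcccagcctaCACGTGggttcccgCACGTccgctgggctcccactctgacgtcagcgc
Pgk1, chrX:103382189-103382438, plus strand: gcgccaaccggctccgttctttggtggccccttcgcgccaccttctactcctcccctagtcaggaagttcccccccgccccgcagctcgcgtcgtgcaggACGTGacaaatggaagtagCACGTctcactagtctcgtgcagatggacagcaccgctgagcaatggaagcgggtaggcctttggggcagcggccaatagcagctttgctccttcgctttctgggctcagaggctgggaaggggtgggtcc
Pfkl, chr10:77472553-77472802, minus strand: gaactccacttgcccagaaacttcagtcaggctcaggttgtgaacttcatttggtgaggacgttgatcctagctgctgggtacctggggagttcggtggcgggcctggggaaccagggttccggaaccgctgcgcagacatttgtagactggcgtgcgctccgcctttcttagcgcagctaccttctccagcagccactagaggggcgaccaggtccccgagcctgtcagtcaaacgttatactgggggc

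The printed Ldha window held 5 matches in 3 runs, with the palindrome CACGTG in 2 of the runs, while the window of the second Ldha start in RefSeq held 0. The Pgk1 window held 2 matches and the Pfkl window 0. Only ACGTG was searched, and other sequences that hypoxia-inducible factors may bind were not. RefSeq listed 15 windows for the 10 genes, and 7 of them held the motif, in 5 genes (Hk2, Pfkfb3, Aldoa, Pgk1 and Ldha). Of all 32851 RefSeq promoter windows of this length, 16.6% held it. The printed Ldha and Pfkl windows lie inside the spans of these genes in GENCODE M1, and which start MLECs use was not tested. Bases before the GENCODE start of Pfkl were therefore not read. The letters are a description of the windows and no measure of binding.

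At the entry of the pathway, Hk1 encodes the hexokinase found in most cells, and Hk2 encodes the hexokinase that is inducible in many tissues. Hk1 had 6.72, 13.5 and 0.852 FPKM in control, 9.42, 7.65 and 8.08 in GL261 and 24.2, 9.01 and 15.7 in B16 libraries. Its groups overlapped (log2 difference 1.05 between tumor-associated and control MLECs, standard error 0.75, limma's adjusted p = 0.462). Hk2 was listed at 0 in 6 of the 9 libraries and had 0.624 FPKM in control replicate 3, 0.335 in GL261 replicate 3 and 0.0499 in B16 replicate 2. Hkdc1 was listed at 0 in all 9 libraries, and Hk3 in all but GL261 replicate 3, where it had 0.252 FPKM. Of Hk1, Hk2, Hk3 and Hkdc1, only Hk1 reached an FPKM of 1 in any library.

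Gpi1, which encodes the isomerase of the second step, had 118, 114 and 32.0 FPKM in control, 68.0, 75.2 and 70.7 in GL261 and 138, 137 and 152 in B16 libraries. The B16 libraries lay close together and above all others, and the GL261 libraries lay within the control range. The difference from control was 0.90 in B16 (limma's adjusted p = 0.422) and -0.09 in GL261 (0.956). GL261 minus B16 gave -0.99, with a 95% interval from -2.07 to 0.09 (limma's adjusted p = 0.936).

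The committed step is carried out by phosphofructokinase, whose subunits Pfkl, Pfkp and Pfkm are named for liver, platelet and muscle. Pfkl, on chromosome 10 from 77449692 to 77472828 in mm9, had 1.91, 10.4 and 3.07 FPKM in control, 19.8, 11.3 and 18.1 in GL261 and 53.0, 19.4 and 32.4 in B16 libraries. Control replicate 2 nearly reached GL261 replicate 2, and the other libraries were well apart. The log2 difference was 2.21 between tumor-associated and control MLECs (standard error 0.66, limma's adjusted p = 0.0847), 1.72 for GL261 (0.257) and 2.69 for B16 (0.0886). Without control replicate 2, Pfkl was called with both tumors joined (2.79, limma's adjusted p = 0.0401) and in B16 MLECs (3.27, 0.0408).

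Pfkp had 4.14, 22.8 and 18.2 FPKM without a tumor and between 4.84 and 17.7 with one, with overlap (log2 difference -0.19, limma's adjusted p = 0.916). Pfkm, which is not among the 10 genes, had 15.3, 13.3 and 15.3 FPKM in control, 2.44, 3.22 and 0.0866 in GL261 and 0, 1.70 and 12.7 in B16 libraries, each below each control library (log2 difference -2.43, limma's adjusted p = 0.151). Of the summed FPKM of the 3 subunits, Pfkl made up 8.40% to 22.4% in a control library, 51.3% to 63.5% with GL261 and 58.3% to 75.0% with B16. The share of Pfkm was 28.6% to 71.6% without and 0% to 23.6% with a tumor, so that neither share overlapped. The sum itself did overlap, at 21.3 to 46.6 FPKM without and 19.3 to 70.7 FPKM with a tumor. These shares were formed after the values were seen and were not tested.

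**Figure D3:**
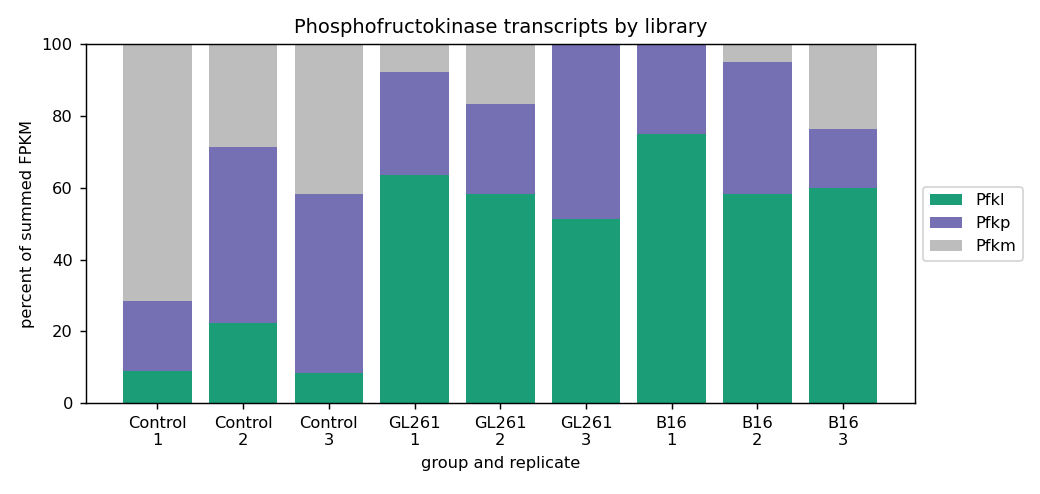
Share of Pfkl, Pfkp and Pfkm in their summed FPKM (vertical axis, percent) in each library (horizontal axis, group and replicate). Pfkl holds 8.40% to 22.4% of a control library's sum and 51.3% to 75.0% of that of a library with a tumor.

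Pfkfb3 makes fructose 2,6-bisphosphate, the strongest known activator of phosphofructokinase. The 3 control libraries listed it at 0, the GL261 libraries at 6.20, 4.69 and 0.050 FPKM, and the B16 libraries at 2.64, 0 and 0.588. The GL261 values lay above control, though barely so in replicate 3, and B16 overlapped with it (log2 difference 1.81 in GL261, limma's adjusted p = 0.295, and 0.84 in B16, 0.691). Pfkfb1, Pfkfb2 and Pfkfb4, the other genes of this family, were at 0 in all control libraries and had at most 1.67, 2.87 and 2.32 FPKM in any tumor-associated library.

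Aldoa encodes the aldolase that splits the 6-carbon sugar. It had 442, 274 and 289 FPKM in control, 442, 430 and 312 in GL261 and 489, 508 and 675 in B16 libraries. Each B16 library was above each library of the other groups, and GL261 and control overlapped. The difference from control was 0.75 in B16 (95% interval 0.13 to 1.37, limma's adjusted p = 0.237) and 0.25 in GL261 (0.710), where it turned to -0.06 after rescaling and to -0.0010 after quantile normalization.

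Tpi1, which interconverts the triose phosphates made by aldolase, had 160, 143 and 67.2 FPKM without a tumor and between 85.7 and 177 with one. Pgk1, the kinase that makes the first ATP of the pathway, had 79.2, 52.9 and 33.8 FPKM without a tumor and between 51.6 and 117 with one. Both overlapped in every comparison (log2 differences of -0.08 and 0.48 between tumor-associated and control MLECs, limma's adjusted p of 0.936 and 0.538). The 95% intervals, -0.89 to 0.73 for Tpi1 and -0.38 to 1.35 for Pgk1, do not reach the difference of 2.33 measured for Ldha.

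In order of mean FPKM in control MLECs the genes ran Aldoa (335), Tpi1 (123), Gpi1 (88.0), Ldha (87.4), Pgk1 (55.3), Pfkp (15.1), Hk1 (7.02), Pfkl (5.14), Hk2 and Pfkfb3. The lowest value of Aldoa was above the highest of Tpi1, while Tpi1, Gpi1, Ldha and Pgk1 overlapped with each neighbour. Together the 10 genes reached 489 to 919 FPKM in a control library, 1016 to 1332 with GL261 and 1092 to 1655 with B16. As a share of all FPKM of a library this was 0.0749% to 0.138% in control and 0.132% to 0.217% in tumor-associated MLECs, so that the groups no longer separated once the sum of each library was taken into account.

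**Figure D4:**
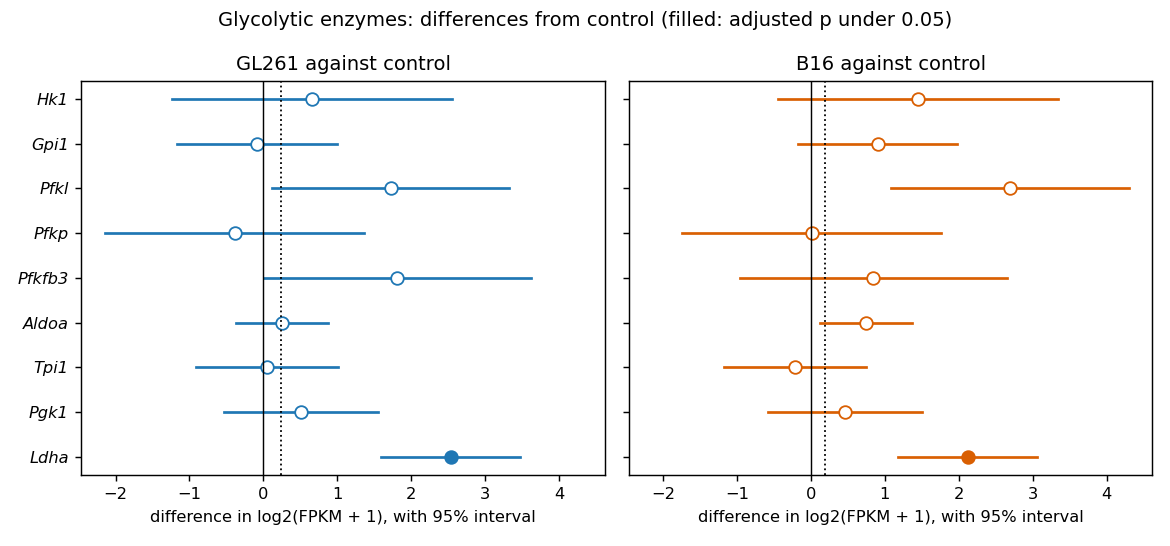
Differences from control in log2(FPKM + 1) (horizontal axis) with 95% intervals for the 9 genes tested, in GL261 (left) and B16 (right) MLECs. Filled points have an adjusted p under 0.05 and the dotted line marks the median of all genes tested, 0.23 and 0.20. Ldha is the only filled point, at 2.54 and 2.12.

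Between both tumors none of the 9 genes was called by limma, 0 of them had an unadjusted p under 0.05 (5.5% of all genes did), and 0.01% of all genes were called. Gpi1 and Aldoa, 2 of the 9 genes (22.2%), were higher in each B16 than in each GL261 library, where 13.8% of all genes did not overlap, 6.66% with the lower values in GL261. Against control and again without Pfkfb3, 2 of 8 genes did not overlap in GL261 (Pfkl and Ldha) and 4 in B16 (Gpi1, Pfkl, Aldoa and Ldha), beside 22.5% and 17.2% of all genes. All of them were higher than in control, as were 13.7% and 10.2% of all genes without overlap. These comparisons share the control libraries. By the labels, the GL261 and B16 groups differ in the time to collection as well as in the tumor, and the effects of these cannot be told apart. The study's results give 2 weeks for both.

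The neighbouring steps were read from lists of further genes. Of 24 other glycolytic genes 8 were tested, 1 rose in tumor-associated MLECs and 0 fell, with a median difference of 1.04. The gene was Gapdh, the enzyme between triose phosphates and Pgk1, with 736, 918 and 586 FPKM without a tumor and between 1267 and 2306 with one. It differed by 1.21 on the log2 scale (standard error 0.21, limma's adjusted p = 0.00672), but not past the threshold with the depth covariates (0.308 and 0.273) or without a trend (0.145), and 68 intronless copies of its coding sequence in mm9 make its FPKM uncertain. Pgam1, Pkm and Eno1, the enzymes of the last steps to pyruvate, had differences of 1.75, 1.16 and 0.93 (limma's adjusted p of 0.0510, 0.0901 and 0.189). Pgam1 and Pkm separated the groups without overlap, and Eno1 did not. Aldoc was listed at 0 in all 9 libraries.

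**Figure D5:**
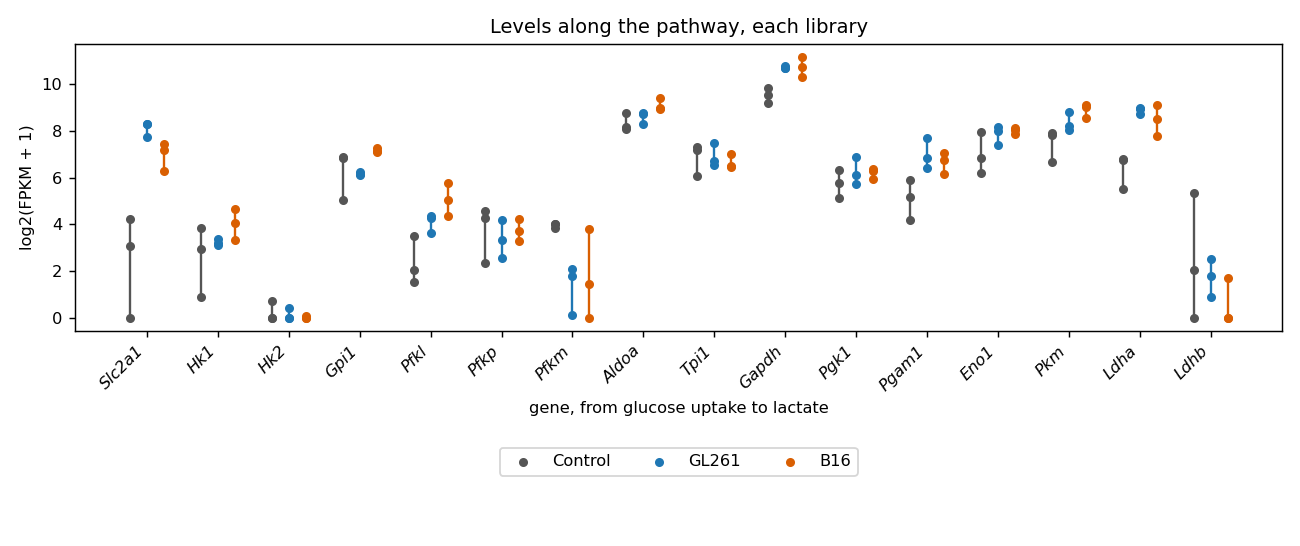
Level in log2(FPKM + 1) (vertical axis) of genes from glucose uptake to lactate (horizontal axis, in pathway order) in each library. Points are libraries, and lines join the lowest and the highest library of a group. Slc2a1, Pfkl, Gapdh, Pgam1, Pkm and Ldha lie higher in each tumor-associated than in each control library, and Pfkm lies lower.

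Slc2a1 encodes GLUT1, the main glucose carrier of endothelial cells and of the blood-brain barrier. It had 17.9, 7.37 and 0 FPKM in control, 211, 311 and 312 in GL261 and 143, 77.6 and 174 in B16 libraries, and the groups were far apart. The log2 difference was 5.10 (standard error 0.77, limma's adjusted p = 0.00213), and it was 5.66 in GL261 (0.00532) and 4.54 in B16 (0.0222). It was the only call among 5 tested genes of 14 for glucose and lactate transport. With the depth covariates its difference was 3.54 (aligned reads, limma's adjusted p = 0.316) and 4.88 (genes above 0, 0.175). Slc2a3 was listed at 0 in all libraries. The lactate carriers Slc16a1 and Slc16a3 had at most 4.75 and 11.1 FPKM, with overlap, and Bsg, which escorts them to the membrane, had 366 to 434 FPKM without and 288 to 549 with a tumor (log2 difference -0.04, limma's adjusted p = 0.952).

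Side branches gave few calls. Of 12 tested genes for the entry of pyruvate into mitochondria 0 were called in tumor-associated MLECs by limma and 5 had an unadjusted p under 0.05. Pdk1, a kinase that turns pyruvate dehydrogenase off, had at most 0.105 FPKM without and 0.222 to 5.84 with a tumor (log2 difference 2.09, limma's adjusted p = 0.123). Pdk1 and Pdk3 are among these 5 genes and passed the filter only through tumor-associated libraries, so that their direction was fixed. The unadjusted counts in this paragraph have no share of all genes beside them. Of 8 genes of the pentose phosphate pathway 0 were called and 0 had an unadjusted p under 0.05, and of 2 tested genes of gluconeogenesis 0 were called and 1 had an unadjusted p under 0.05. Phgdh, which draws 3-phosphoglycerate into serine synthesis, was listed at 0 in each control library, at 19.1, 49.5 and 70.7 FPKM with GL261 and at 157, 29.6 and 163 with B16 (limma's adjusted p = 5.20e-04), the only 1 of 4 tested genes of that branch to be called. With the depth covariates its adjusted p from limma was 0.0289 and 0.0336. Phgdh passed the filter only through tumor-associated libraries, so that its direction was fixed in each of these fits. Pygm, the muscle-type glycogen phosphorylase, fell from 24, 48.7 and 46.1 FPKM in control to 0 in 4 tumor-associated libraries and 3.34 and 5.09 in B16 replicates 2 and 3 (log2 difference -4.49, limma's adjusted p = 0.00923), the only call among 8 tested genes of glycogen, and lost with the depth covariates (0.329 and 0.259). Slc2a1, Phgdh and Pygm are in the study's own list of changed genes, which was chosen on these libraries.

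Among 18 tested regulators and targets of hypoxia-inducible factors, 2 rose and 0 fell in tumor-associated MLECs, with a median difference of 0.48. Hif1a, the oxygen-regulated subunit HIF-1α, had 3.20, 15.6 and 20.5 FPKM without a tumor and between 29.3 and 96.2 with one (log2 difference 2.36, limma's adjusted p = 0.0434). Bnip3, a mitophagy gene and known target, had 0 FPKM in each control library and 2.97 to 18.1 with a tumor (limma's adjusted p = 0.0279). Like Pfkfb3, Bnip3 and Vegfa passed the filter only through tumor-associated libraries, so that their direction was fixed. The same holds for Phgdh, and the median of 0.48 includes Bnip3 and Vegfa. The calls of Hif1a and Bnip3 were near the threshold and were lost in 14 of 19 (Hif1a) and 9 of 18 (Bnip3) alternatives. Neither was called in GL261 or B16 alone. Epas1, which encodes HIF-2α, was higher in each tumor-associated library (log2 difference 1.19, limma's adjusted p = 0.179). On this list, all other known targets that were tested overlapped. Their differences were 2.80 (Ankrd37), 1.25 (Vegfa), 0.49 (Ddit4), 0.47 (Egln3), 0.10 (P4ha1), -0.92 (Adm) and -1.09 (Ndrg1), with limma's adjusted p between 0.203 and 0.949. Genes of glycolysis, of glucose transport and of pyruvate entry were kept on other lists, and this statement does not cover them. Myc, Klf2 and Foxo1, known regulators of endothelial glycolysis, overlapped (log2 differences of 0.24, 0.63 and -0.97, limma's adjusted p of 0.923, 0.430 and 0.440).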

How the data were processed

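RNA-seq libraries of sorted MLECs (Smart-seq2, 3 per group) were used. The authors removed adapter, primer, poly(A) and low-quality reads, aligned with TopHat2 2.0.12 to mm9, ran Cufflinks 2.2.1 and deposited an FPKM for each gene symbol and library. The gene annotation is not given in the sources used here. FPKM sums differ between libraries, and no further scaling was made.

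From the deposited FPKM, log2(FPKM + 1) was fitted with limma 3.58.1 in R 4.3.3 (lmFit, eBayes with a trend, Benjamini-Hochberg over 9955 genes). Tumor-associated against control used 2 groups, and the other 3 comparisons used a model with 3 groups. The study's methods rank genes by ROC power above 0.4, which gives no p, so this was an alternative. The fit was tested on simulated data. Groups follow the labels. Aligned reads listed by the study entered only as a covariate. Positions are those of GENCODE M1 (NCBIM37, the mm9 build). Copies were sought with BLAST 2.17.0, and RefSeq promoter windows (table on GRCm38.p6) matched all 10 genes.

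The 10 genes and the lists were chosen with earlier results of these data known. Named are all 10 genes, a fixed set of pathway genes, and list genes with an adjusted p under 0.05 against control. Each replicate is a pool of mice. Alternatives were a pseudocount of 0.1, rescaling to a sum of 1000000, quantile normalization, no filter, a mean FPKM of at least 10, eBayes without a trend, a replicate block, both depth covariates, other groupings and leaving out each library. Tables and figures used Python 3.11.15, pandas 2.3.3, numpy 2.4.6 and matplotlib 3.10.9.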

Additional observations from a re-analysis of the deposited data

Results flagged for a closer look

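In Hk2, GL261 replicate 3 stood apart from the other 5 tumor-associated libraries, with 0.831 of the range of log2(FPKM + 1) between it and its nearest neighbour, against a critical value of 0.625 for 6 libraries. The values behind it were 0.335 FPKM in that library, 0.0499 in B16 replicate 2 and 0 in the others. The 10 genes were each examined, and groups of 3 libraries were not. Chance alone sets apart about 1 in 20 groups of normal values, but this rate does not hold for values tied at 0, as in Hk2.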

How the results depend on the processing

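The number of the 10 genes called in tumor-associated against control MLECs, 1 (Ldha), was 0 with the aligned reads or the detected genes as a covariate and 6 by ROC power above 0.4, and 1 to 2 when libraries were left out. In GL261 it was 0 without a trend and with either depth covariate, and 0 to 1 when libraries were left out. In B16 it was 0 without the filter, without a trend, with either depth covariate, with only both groups compared and with the replicate block (Ldha, limma's adjusted p = 0.0618), and 0 to 2 when libraries were left out. Between the tumors it was 0 under each of the 19 alternatives. The replicate block changed no other call among the 10 genes. Same-numbered libraries deviated from their group means with correlations of -0.033 to 0.044 over 9 pairs. Whether they share more than a number, such as a batch, cannot be told from these values. In the whole table the replicate block left 303, 230, 146 and 1 genes called, where 391 (tumor-associated against control), 347 (GL261), 210 (B16) and 1 (between the tumors) were called as reported. These calls were 9, 2 and 5 with aligned reads, 13, 6 and 17 with detected genes, 254, 218 and 135 without the filter, and 197 and 38 with only both groups compared. When libraries were left out they were 245 to 444, 105 to 363 and 69 to 274, lowest without GL261 replicate 2 for the first and second and without B16 replicate 3 for the third. Between the tumors they were 1 to 4 when libraries were left out and 6 without a trend. Directions turned, beside Ldha between the tumors, only in genes that were not called. With aligned reads as a covariate these were Pfkp (0.89 tumor-associated against control, 1.58 GL261 and 0.53 between the tumors), Hk1 (-0.12 in GL261), Aldoa (-0.51 in GL261), Tpi1 (-1.29 in GL261 and -0.38 between the tumors), Pgk1 (-0.42 in GL261, -0.028 in B16 and -0.40 between the tumors) and Ldha (-0.58 between the tumors). With the detected genes they were Pfkp (0.10 tumor-associated), Gpi1 (0.0077 in GL261) and Tpi1 (-0.39 in GL261). Rescaling turned Aldoa (-0.057) and Tpi1 (-0.26) in GL261, Pfkp in B16 (-0.11) and Pgk1 between the tumors (-0.12), and quantile normalization turned Aldoa (-0.0010) and Tpi1 (-0.078) in GL261 and Pfkp in B16 (-0.13). Ranges over the libraries left out crossed 0 in tumor-associated MLECs for Gpi1 (-0.20 to 0.72, through control replicate 3), Pfkp (-0.87 to 0.23, through control replicates 2 and 3 and GL261 replicate 2) and Tpi1 (-0.47 to 0.15, through control replicates 1 and 2). They did so in GL261 for Hk1 (-0.18 to 1.31, through control replicate 3), Gpi1 (-0.70 to 0.23, through control replicates 1 and 2), Pfkp (-1.07 to 0.032, through control replicate 2 and GL261 replicate 2) and Tpi1 (-0.34 to 0.28, through control replicate 3 and GL261 replicate 1). In B16 these were Pfkp (-0.67 to 0.44, through control replicate 1 and B16 replicate 1) and Tpi1 (-0.60 to 0.026, through control replicate 1), and between the tumors Tpi1 (-0.025 to 0.44, through GL261 replicate 1) and Pgk1 (-0.27 to 0.31, through GL261 replicate 1 and B16 replicate 1). Fits without a filter test more genes and those without a library have fewer libraries, and otherwise the cause was not tested. The FPKM carry no counting error, and how small a difference of a low gene such as Hk2 could be detected was not tested.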
